A study of Mus musculus with 8 samples.

Results

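The comparison of acute colitis with control in wild-type (WT) mice rested on 2 of 8 single-cell RNA libraries, 1 for each condition, and on 11226 of the 46314 cells kept in the whole series. The control library gave 6747 cells and the acute colitis library 4479. Cells were kept with at least 500 unique molecular identifiers (UMIs, each marking 1 captured transcript), at least 200 genes, at most 5% mitochondrial UMIs, and a leading hashtag of at least 50 counts and at least 3 times the next one. Both groups were C57BL/6J mice of 16 weeks by the labels, without the *App* NL-G-F knock-in that the other genotype of the series carries. Controls drank water only. Acute colitis was produced with 2% dextran sulfate sodium (DSS), which injures the colon epithelium, in the drinking water for 1 week. Brains were perfused, immune cells were enriched on Percoll, marked with hashtag antibodies so that up to 4 samples could be pooled in a library, and sorted for CD45.2, a surface protein of all leukocytes.

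The labels do not tie a hashtag to an animal. With 1 library per condition no test between the conditions was possible, and the hashtag groups are given as the spread within a library, not as replicates. All intervals are 95% intervals that cover counting error only. An antibody had been injected into the blood before perfusion to mark intravascular cells, but its label is not in the counts, so cells of the vessel and of the tissue cannot be told apart. Cell gates, 6 in all, were defined by the UMIs of marker genes in a cell. They were T cells (*Cd3e* and *Cd3d*), B cells (*Cd79a* and *Ms4a1*), NK cells (*Ncr1* without *Cd3e*), group 2 innate lymphoid cells or ILC2 (*Gata3* and *Il1rl1* without *Cd3e*), macrophages (*C1qa* and *C1qb*) and neutrophils (*Csf3r* with at least 10 UMIs of *S100a8*). No gate held 46.1% of control and 30.5% of acute cells, and several gates at once held 1.57% and 3.42%.

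As background, the healthy brain is surrounded by meninges and perivascular spaces that hold border macrophages, ILC2, lymphocytes and some neutrophils, while microglia populate the tissue itself. Border macrophages scavenge and present antigen, ILC2 answer interleukin-33 and neuropeptides with type 2 cytokines, and neutrophils carry granules that are filled in sequence during their maturation in the marrow. Colitis is known to mobilise marrow cells and to raise cytokines in the blood.

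The hashtag groups of a library did not look alike. The summed level of 10 immediate-early genes in T-gate cells was 1460 and 1156 in control hashtags 4 and 5, but 5971 and 6308 in control hashtags 6 and 7, in CPM, which are a gene's UMIs scaled to the same fixed total in every gate and library. In the acute library it was 5674 and 5820 in hashtags 4 and 5, and 1032 and 1939 in hashtags 6 and 7, which held only 108 and 54 cells. Immediate-early genes such as *Fos*, *Jun* and *Egr1* respond to stimulation within minutes, and also to cell handling. The groups above 3000 CPM, called high groups here, made up 3766 of 6747 control cells and 4317 of 4479 acute cells. The acute library was therefore almost wholly high, while the control library was mixed. Shares are given for whole libraries and for the high groups alone. For B cells, macrophages and T cells they are also given for the low groups, which are all others. The gene levels that the results turn on are given by hashtag group. What set the groups apart was not tested. The cutoff was set on these data.

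The acute colitis library had a larger share of B cells and macrophages. The B gate held 988 of 6747 control cells (14.6%, exact interval 13.8 to 15.5) and 1268 of 4479 acute cells (28.3%, 27.0 to 29.7), a difference of 13.7 percentage points (interval 12.1 to 15.2). By hashtag 4, 5, 6 and 7, the share was 11.1%, 19.8%, 13.7% and 11.2% in control, and 28.3%, 29.3%, 25.0% and 3.70% in acute colitis. The last acute value came from 2 of 54 cells. All other acute groups lay above all control groups. Within the high groups the B share was 12.7% in control and 28.7% in acute colitis, 16.0 points higher (14.3 to 17.7). Within the low groups, with only 162 acute cells, it was 17.1% and 17.9%, a difference of 0.793 points (-4.95 to 7.71).

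The macrophage gate held 259 control cells (3.84%, 3.39 to 4.32) and 500 acute cells (11.2%, 10.3 to 12.1), 7.32 points more (6.29 to 8.38). Its share was 1.63%, 0.194%, 6.89% and 5.64% in control hashtags 4 to 7. In acute hashtags 4 and 5 it was 9.98% and 13.7%. Acute hashtag 6 had 0 of 108 cells, a count of 0 that leaves room for a share of 2.78%, and acute hashtag 7 had 3.70%. Within the high groups, which did not overlap between the libraries, the macrophage share was 6.37% and 11.5%, a smaller difference of 5.16 points (3.91 to 6.41). Within the low groups it was 0.637% and 1.23%, a difference of 0.597 points (-0.544 to 3.76). With every cell thinned to 1000 UMIs the shares were 2.71% and 9.38%.

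The T gate was smaller in the acute library, with 1564 control cells (23.2%, 22.2 to 24.2) and 838 acute cells (18.7%, 17.6 to 19.9), a difference of -4.47 points (-6.00 to -2.93). Control hashtag 4 held 50.5% T cells. The other control groups held 15.6%, 19.9% and 21.8%, and the acute groups 17.5%, 19.1%, 25.0% and 51.9%, so the ranges overlapped. Within the high groups the T share was 20.7% and 18.1%, -2.52 points (-4.27 to -0.776). Within the low groups, with only 162 acute cells, the sign was opposite, at 26.4% and 34.0%, 7.58 points (0.160 to 15.6). Without control hashtag 4 the difference of the libraries was -0.151 points, and the mean over hashtag groups was 1.41 points higher in acute colitis.

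For the other gates, too, the direction depended on which cells were compared. Neutrophils were 2.31% of control and 2.75% of acute cells, 0.434 points more (-0.166 to 1.06), but within the high groups they were 4.04% and 2.83%, -1.21 points (-2.04 to -0.399). Thinned to 1000 UMIs per cell, the high groups held 0.880% and 1.62%, so the sign turned again. Neutrophil-gate cells of the acute library were shallow, with a median of 2030 UMIs against 9053.5 in control, whereas the other gates were deeper in the acute library, and the gate asks for 10 *S100a8* UMIs. ILC2 were 5.23% and 6.32%, 1.09 points more (0.195 to 2.00), but within the high groups 7.75% and 6.39%, -1.36 points (-2.51 to -0.224). NK cells were 6.28% and 5.76%, -0.524 points (-1.42 to 0.395). Within the high groups they were 6.74% and 5.63%, -1.12 points (-2.20 to -0.0472). Without control hashtag 4 the NK difference of the libraries was 0.166 points.

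**Figure D1:**
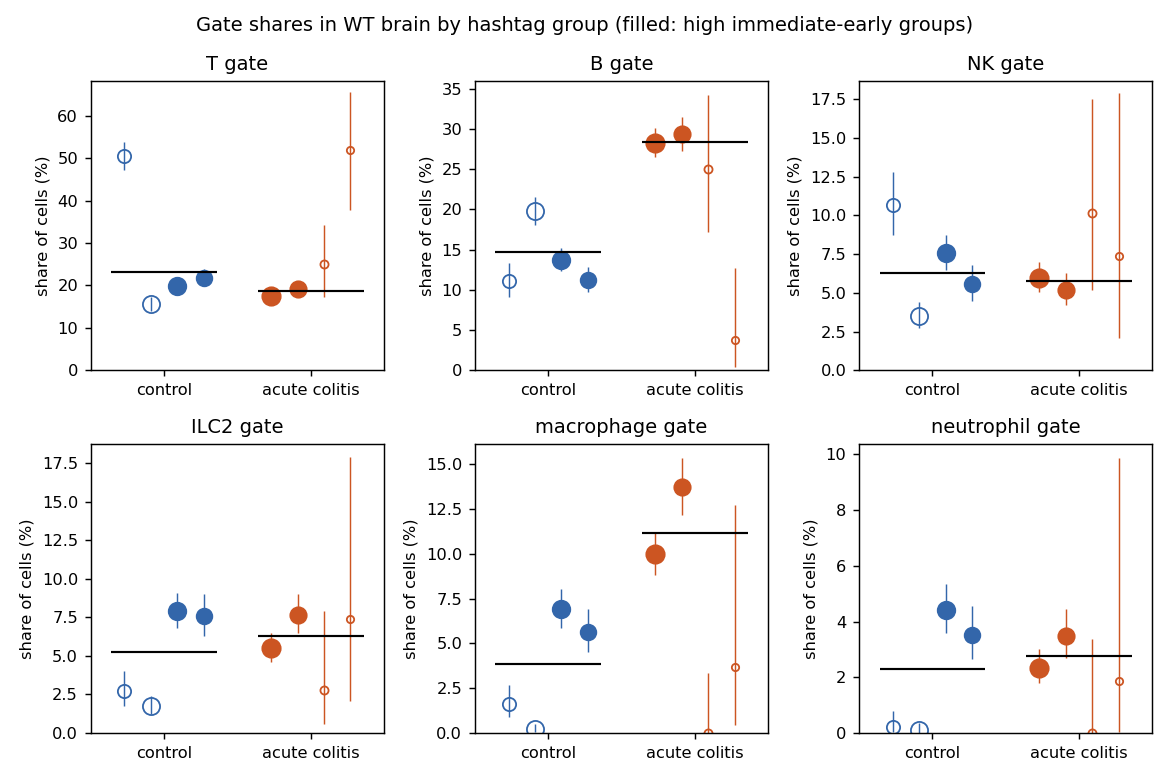
Share of cells in each gate (percent of all kept cells, y axis) for the 4 hashtag groups of the control (blue) and acute colitis (orange) WT libraries, with exact 95% intervals. Filled circles are high immediate-early groups, open circles low ones, circle size follows the number of cells, and the black line is the library's share; the filled orange circles lie above the filled blue ones for B cells and macrophages.

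The same gates in the *App* NL-G-F libraries, treated in the same way, gave a B share of 10.8% in control and 31.0% in acute colitis within the high groups (20.2 points more), and a macrophage share of 6.06% and 11.4% (5.33 points more). ILC2 differed by -2.31 points and neutrophils by -1.88 points there. These high groups leave out acute hashtag 7, which held 3218 of the 6282 acute *App* NL-G-F cells, 17.5% of them neutrophils. Whole *App* NL-G-F libraries gave 7.56 points for B cells, 2.30 for macrophages and 7.11 for neutrophils. The difference between the genotypes was not tested, since each is again 1 library per condition.

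Gene levels were compared as summed UMIs per gene in each gate, on the log2 scale of CPM with 10 added, which understates the change of low genes. A gene was tested with at least 50 UMIs over both libraries and at least 50 CPM in either, and called at 2-fold. TMM scaling, tried as an alternative, moved the median log2 of all genes from -0.17 to -0.05 in T cells, -0.12 to 0.01 in B cells and -0.18 to -0.02 in ILC2. A single shift ran through all gates. Of 1707 genes tested in every gate, 26 were at least 2-fold higher in acute colitis in every gate and 0 lower, and these were short: 17 of 26 had a shortest transcript under 500 nt, and their median was 433 nt against 1461.5 nt. Ribosomal protein genes led them. *Rps29* in the T gate was 788 CPM in control and 4379 CPM in acute colitis, *Rps28* 816 and 4059, and *Rpl38* 625 and 3264. The mitochondrial subunit gene *Ndufb1-ps*, at 38.1 and 203 CPM, was the other named gene that was higher in T cells.

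The summed level of the 26 genes in the T gate was 17200 CPM in WT control, 57620 in WT acute colitis, and between 33340 and 60420 in the 6 other libraries, so the WT control library stood apart. Barcodes with 1 to 50 UMIs, which hold free RNA rather than cells, gave 12100 and 30640 CPM in the WT pair, and all 26 genes were higher there too. Of genes under 500 nt, between 13.8% (macrophages) and 25.3% (neutrophils) were 2-fold higher in acute colitis, while of genes of 2000 nt or more the share was 0.149% to 0.697% in the lymphoid gates, 3.37% in macrophages and 9.66% in neutrophils. In T cells of the whole *App* NL-G-F libraries *Rps29* went the other way, from 4634 to 3158 CPM. Whether the shift arose in the mice or in the libraries cannot be told apart. Short genes stay in the counts that follow, and each gate's count is also given without genes under 500 nt.

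**Figure D2:**
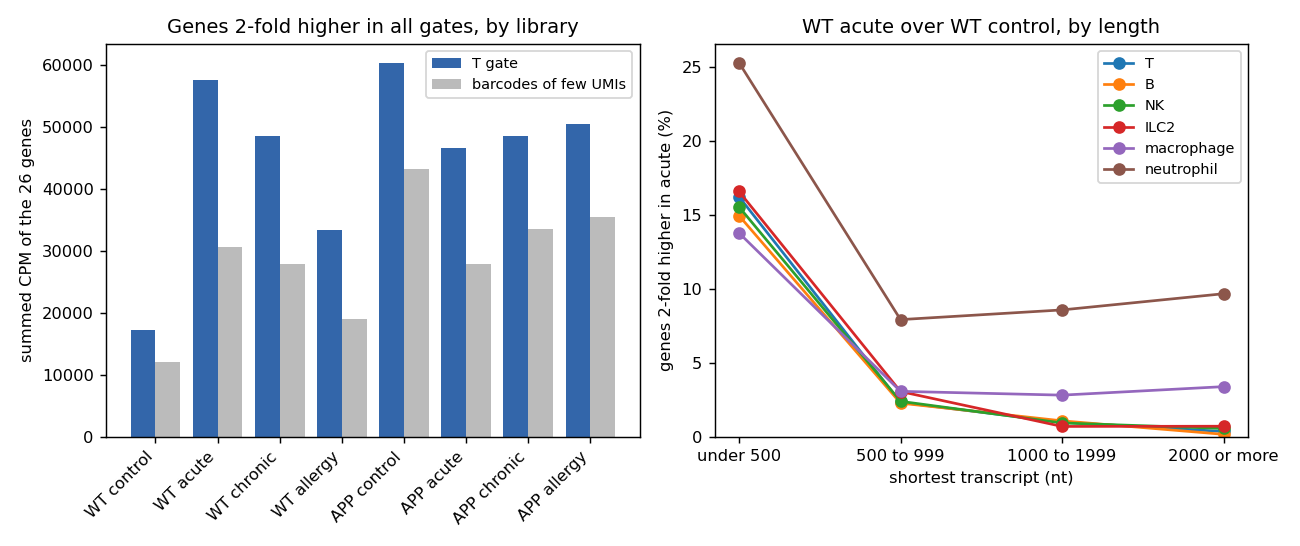
Left, summed CPM of the 26 genes that were 2-fold higher in all gates (y axis), in T-gate cells (blue) and in barcodes of 1 to 50 UMIs (grey) of the 8 libraries; the WT control bars, 17200 and 12100 CPM, are the lowest. Right, percent of tested genes at least 2-fold higher in WT acute colitis (y axis) by the length of the shortest transcript in nucleotides (x axis), 1 line per gate; genes under 500 nt lie highest in every gate.

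Macrophages of the acute library carried more of the border-macrophage genes. The 8 macrophage markers include the gate genes *C1qa* and *C1qb*, and *Pf4*, *Mrc1* and *Ms4a7* of the border-macrophage list, so their sum is no separate result. All 8 were detected in both libraries and summed to 11300 CPM in control and 15740 CPM in acute colitis. The 7 microglial markers summed to 701 and 789 CPM. Of 3378 genes tested, 132 were at least 2-fold higher in acute colitis (3.91%) and 151 lower (4.47%). Without genes under 500 nt these were 105 and 140. Of 8 border-macrophage genes, all tested, 5 were 2-fold higher and 0 lower, with a median log2 difference of 1.31 against -0.07 over all genes. The 2 control and 2 acute hashtag groups with at least 20 macrophages did not overlap for 7 of the 8, 6 higher and 1 lower; over all genes 28.6% did so in the higher and 34.7% in the lower direction, since 2 groups against 2 separate easily. All 4 of these groups are high groups. T-gate cells were 15.4% of this gate in control and 8.2% in acute colitis, and neutrophil markers summed to 4928 and 838 CPM. The part of such other RNA in the levels of the border-macrophage genes was not tested.

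*Pf4*, a chemokine of platelets and border macrophages (chr5:90772435-90773383, GRCm38), was 205 CPM in control and 1065 CPM in acute colitis, 5.19-fold higher (interval 4.54 to 5.94). Its level was 228 and 224 CPM in the control hashtag groups, and 1006 and 1133 CPM in the acute ones, and 87 of 259 control and 329 of 500 acute cells held a UMI. *Mrc1*, the mannose receptor, was 411 and 394 CPM against 988 and 906 CPM (log2 1.32). The scavenging genes *Folr2*, a folate receptor, and *Cbr2*, a carbonyl reductase, went from 22.2 to 106 CPM and from 240 to 608 CPM, and *Ms4a7*, a membrane protein of border macrophages, from 145 to 401 CPM. *Cd163*, the receptor for haemoglobin bound to haptoglobin, was 98.0 and 199.5 CPM (log2 0.96). *Lyve1*, a hyaluronan receptor, was 58.0 and 67.6 CPM with overlapping groups, and *F13a1*, a coagulation factor subunit, was lower at 741 and 626 CPM. The list thus did not move as 1 block.

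With each cell weighted equally *Pf4* was 501 and 1569 CPM and *Mrc1* 823 and 1353 CPM, a smaller log2 difference of 1.63 and 0.71. In the high groups of the *App* NL-G-F libraries *Pf4* was 294 CPM in control and 1364 CPM in acute colitis, *Mrc1* 440 and 855 CPM, and *Folr2* 32.9 and 136 CPM, while *Cd163* was 156.5 and 126 CPM. The first 3 went the same way in both genotypes and *Cd163* did not; the difference was not tested.

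The genes with the highest difference among those whose hashtag groups did not overlap were the C-type lectin *Cd209f*, *Pla2g2d*, *Rps29* and *Serpinf1*. *Cd209f* was 6.82 CPM in control and 160 CPM in acute colitis, and 6 and 89 cells held it. *Pla2g2d*, a secreted phospholipase, had 0 UMIs in control, which allows 2.56 CPM, and 73.6 CPM in 105 acute cells, at least 28.8-fold higher. *Serpinf1*, a secreted serpin, was 23.9 and 163 CPM. In *App* NL-G-F mice *Cd209f* was 45.4 and 164 CPM, *Pla2g2d* 4.45 and 78.6 CPM, and *Serpinf1* 27.6 and 75.2 CPM, all higher in acute colitis.

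Antigen presentation genes of MHC class II were higher in acute macrophages in 7 of 7 cases without overlap (background 28.6%), with a median log2 of 0.55. Only *Ciita*, their transcriptional activator, passed 2-fold, at 52.0 CPM in control and 125 CPM in acute colitis. *H2-Aa* was 5547 and 8266 CPM in the control groups and 10000 and 9174 CPM in the acute ones, and *Cd74*, the invariant chain, was 19610 and 28660 CPM in the libraries. B-gate cells made up 3 of 259 control and 24 of 500 acute macrophages, and T-gate cells 40 and 41, with T-cell markers at 715 and 368 CPM. The part of such mixed droplets in these levels was not tested. *H2-Aa* and *Ciita* were not higher in the *App* NL-G-F acute library (log2 -0.09 and -0.26).

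Of 9 tested inflammatory genes in macrophages, 1 was 2-fold higher and 0 lower. That gene was the monocyte-attracting chemokine gene *Ccl7*, at 169 and 443 CPM. The related *Ccl8* (256 and 506 CPM) and *Ccl2* (578 and 929 CPM) did not reach 2-fold. *Il1b* did not either, with 1025 and 1528 CPM in the control groups and 634 and 748 CPM in the acute ones, nor did the neutrophil attractant *Cxcl2*, at 1868 and 1081 CPM. In *App* NL-G-F macrophages the log2 difference was -0.91 for *Il1b* and -0.69 for *Cxcl2*, and *Ccl7* was 370 and 297 CPM. Of 7 tested glycolysis genes 1 was 2-fold lower, and 6 were lower without overlap (background 34.7%), in a gate where the neutrophil markers summed to 4928 and 838 CPM and the monocyte markers to 3759 and 1026 CPM. Among them were *Pkm*, pyruvate kinase, at 508 and 228 CPM, and *Ldha*, lactate dehydrogenase, at 514 and 270 CPM.

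Neutrophil and monocyte genes made up 3 of the 4 named lower genes of the macrophage gate. Of 6 tested secondary-granule genes, 6 were 2-fold lower in acute colitis, with a median log2 of -4.63. *Chil3*, a chitinase-like protein, went from 1627 to 11.3 CPM and was seen in 32 control and 4 acute cells. *Lcn2*, which binds bacterial siderophores, went from 1006 to 20.1 CPM, but in cells of a single gate it was 73.8 and 2.10 CPM. *Saa3*, an acute-phase protein, had 372 CPM in 24 control cells and 0 UMIs in acute colitis, which allows 1.21 CPM. All 7 neutrophil markers and all 6 monocyte markers were detected in both libraries, at the sums given above. Free RNA moved in the same direction, *Chil3* being 504 CPM in barcodes of 1 to 50 UMIs in control and 55.3 CPM in acute colitis. The part of neutrophil or monocyte RNA in these values was not tested. In *App* NL-G-F macrophages *Lcn2* went from 470.5 to 2864 CPM and *Saa3* from 84.5 to 1.72 CPM. *Hbb-bs*, a globin gene, came from 3 control cells.

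**Figure D3:**
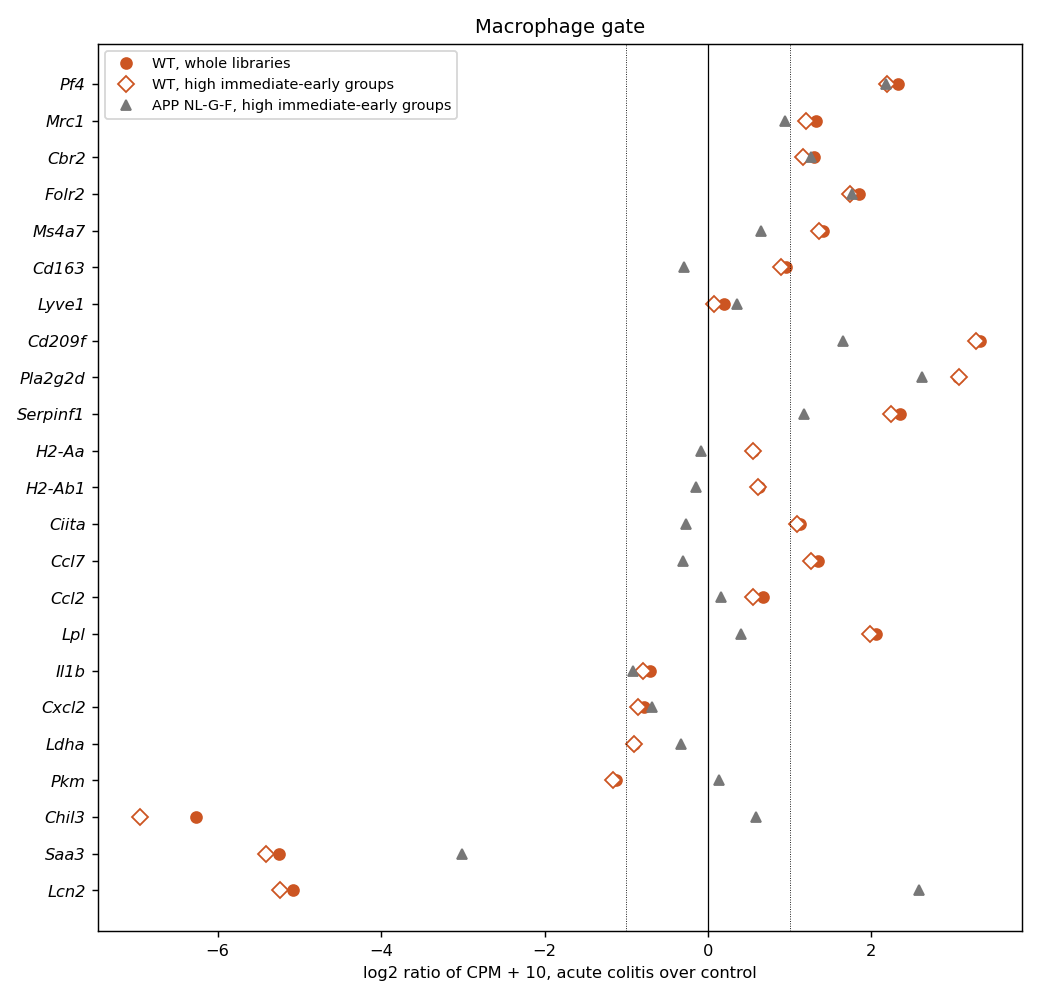
Log2 ratio of CPM with 10 added, acute colitis over control (x axis), for named and list genes of the macrophage gate (y axis). Filled circles are whole WT libraries, diamonds WT high groups and triangles the high groups of App NL-G-F mice; dotted lines mark 2-fold, and Pf4 (2.32) and Lcn2 (-5.08) lie on opposite sides in WT.

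In neutrophils 5 of 8 tested secondary-granule genes were 2-fold lower in acute colitis and 3 of 5 tested inflammatory genes 2-fold higher. Of 2654 genes tested, 280 were at least 2-fold higher in acute colitis (10.6%) and 162 lower (6.1%). Under edgeR's TMM scaling the split turned to 168 higher and 322 lower, and without genes under 500 nt it was 237 and 155. TMM moved the median of all genes from 0.09 to -0.25 log2, so the genes below are read against shifts of that size. The gate held 156 control and 123 acute cells, and 8 acute but 0 control cells also passed the B gate. The 7 neutrophil markers, which include the gate genes, summed to 156500 and 169800 CPM, and the 6 monocyte markers to 7664 and 2703 CPM. The 7 NK markers were at 0 in the acute gate.

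The promoter sequences below are of *Ltf*, *Lcn2* and *Saa3*, iron-binding and acute-phase genes that were lower in acute neutrophils. Only promoters with a match to the letters searched are printed, and genes without one are named after them. Each line gives the 250 bases before the RefSeq start (GRCm38.p6), 5′ to 3′, with capitals marking matches of TTGCNNAA or its reverse complement TTNNGCAA, letters held within sites of C/EBP factors, a family known for its role in granule gene expression.
*Ltf*, chr9:111019042-111019291, plus strand: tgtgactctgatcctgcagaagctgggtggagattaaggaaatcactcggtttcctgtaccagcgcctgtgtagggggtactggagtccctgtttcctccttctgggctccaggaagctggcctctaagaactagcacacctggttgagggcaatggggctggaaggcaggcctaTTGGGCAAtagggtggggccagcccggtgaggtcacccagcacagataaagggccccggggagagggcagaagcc
*Lcn2*, chr2:32387740-32387989, minus strand: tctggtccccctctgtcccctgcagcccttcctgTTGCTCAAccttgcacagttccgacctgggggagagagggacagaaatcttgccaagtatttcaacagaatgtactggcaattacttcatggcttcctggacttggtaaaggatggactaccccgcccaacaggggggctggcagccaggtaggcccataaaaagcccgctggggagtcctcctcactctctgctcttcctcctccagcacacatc
*Saa3*, chr7:46715677-46715926, minus strand: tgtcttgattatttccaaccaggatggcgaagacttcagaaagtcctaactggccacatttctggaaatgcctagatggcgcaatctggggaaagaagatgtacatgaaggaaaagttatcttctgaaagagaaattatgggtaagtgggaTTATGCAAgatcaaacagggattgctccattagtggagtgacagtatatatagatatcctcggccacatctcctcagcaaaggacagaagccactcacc
*Ltf*, *Lcn2* and *Saa3* held 1 match each. *Chil3* and *Cd177*, which were also 2-fold lower in acute neutrophils, held 0, as did *Camp* and *Olfm4*. Of all 32851 promoters of this length, 9.56% held a match. Of the 9 genes searched, which were the 8 secondary-granule genes and *Saa3*, *Ngp* with 2 matches and *Mmp8* held it as well. The matches describe letters and were not tested for binding.

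Of 8 secondary-granule genes tested in the neutrophil gate, 0 were 2-fold higher and 5 lower, with a median log2 of -1.50 against 0.09 over all genes. *Lcn2* was 25710 and 25990 CPM in the control hashtag groups with at least 20 neutrophils, and 8761 and 6677 CPM in the acute ones. The lactoferrin gene *Ltf* (chr9:111019271-111042767) was 9902 and 8097 CPM in control and 5147 and 2891 CPM in acute colitis. *Chil3* was 4733 and 986 CPM in the libraries, *Cd177*, a surface protein of neutrophils, 1988 and 571 CPM, and the collagenase gene *Mmp8* 1915 and 641 CPM. *Ngp*, a granule protein gene, was 34550 and 17620 CPM (log2 -0.97), short of 2-fold. These 6 had no overlap between groups, where 29.1% of all genes were lower without overlap.

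Fewer acute cells held a UMI of them. *Ltf* was seen in 104 of 156 control and 28 of 123 acute cells, *Ngp* in 132 and 42, and *Lcn2* in 155 and 87, in a gate whose median depth was 9053.5 UMIs in control and 2030 UMIs in acute colitis. The cathelicidin gene *Camp* stood apart. It was 11210 CPM in control and 16640 CPM in acute colitis, higher without overlap, from 104 and 33 cells, but with each cell weighted equally it was 8448 and 7588 CPM. In that weighting *Ltf* was 7561 and 1829 CPM and *Lcn2* 23570 and 4458 CPM. Azurophil-granule genes, which mark earlier precursors, were 2-fold higher in 5 of 5 cases over the libraries but in 2 of 5 within the high groups. The summed level was 11020 CPM in the acute library and 4907 and 4419 CPM in acute hashtags 4 and 5, which leave out 1 acute cell. *Mpo* came from 14 control and 4 acute cells and was 291 and 248.5 CPM with cells weighted equally.

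Inflammatory genes were higher in the same gate. *Ccrl2*, a receptor that binds chemerin (chr9:111054486-111057519), was 47.9 and 40.1 CPM in the control groups and 988 and 896 CPM in the acute ones, 16.6-fold higher over the libraries (13.01 to 21.48), and was seen in 28 control and 69 acute cells. *Il1b*, which encodes interleukin-1 beta, was 810 and 2522 CPM against 6779 and 6753 CPM. *Cxcl2* was 2021 and 2938 CPM against 9194 and 8526 CPM. The chemokine gene *Ccl6* was 279 and 1407 CPM in the libraries, and *Nfkbia*, the inhibitor of NF-kappaB, 459.5 and 1267 CPM. Of 5 tested inflammatory genes 3 were 2-fold higher and 0 lower. Of 10 immediate-early genes 4 were 2-fold higher and 8 higher without overlap (background 29.5%). In macrophages of the same libraries *Il1b* and *Cxcl2* had lower values in acute colitis; the difference between the gates was not tested.

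*Saa3* had 241 CPM in 17 control cells and 0 UMIs in acute colitis, which allows 6.59 CPM, at least 36.6-fold lower. *Lipg*, a secreted lipase, had 173.5 CPM in 87 of 156 control cells and 0 in acute colitis, at least 26.3-fold lower. *Prok2*, a secreted peptide of neutrophils, was 332 and 17.6 CPM, and *Cstdc5*, of the stefin family, 244 and 10.98 CPM. *Ifitm1*, a membrane protein, was 2471 and 5128 CPM in the control groups and 394 and 589 CPM in the acute ones. Of 10 tested genes of mature neutrophils 4 were 2-fold higher and 1 lower, where 10.6% and 6.1% of all genes were. The list thus had more genes past 2-fold in the higher than in the lower direction. The genes that follow had lower values in acute colitis and are not among those 4. *Mmp9*, gelatinase B, was 1099 and 674 CPM (log2 -0.70) and *Ly6g* 769.5 and 523 CPM. *Retnlg* (15440 and 12620 CPM) and *Cxcr2*, a chemokine receptor (292 and 272 CPM), overlapped between groups.

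Among the 4 named higher genes, 3 were B-cell genes: *Ly6d* (0.615 and 294 CPM), *Cd79a* (0.615 and 241.5 CPM) and *Cd79b* (3.08 and 206 CPM). *Ly6d* and *Cd79a* were each seen in 1 control and 9 acute cells. In cells of a single gate *Ly6d* was 0.645 and 0 CPM and *Cd79a* 0.645 and 20.7 CPM. The 4 tested MHC class II genes, 4 of 4 2-fold higher, are expressed by B cells as well.

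The high groups of the *App* NL-G-F libraries held 145 control and 77 acute neutrophils, and leave out 562 neutrophils of acute hashtag 7. *Lcn2* was 19730 and 18980 CPM, *Ltf* 8474 and 7797 CPM, *Il1b* 612 and 461 CPM, *Cxcl2* 1332 and 624 CPM and *Ccrl2* 50.7 and 40.5 CPM there. *Saa3* (119.5 and 3.37 CPM) and *Prok2* (232 and 95.6 CPM) were lower in both genotypes. The interaction of genotype and colitis was not tested.

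**Figure D4:**
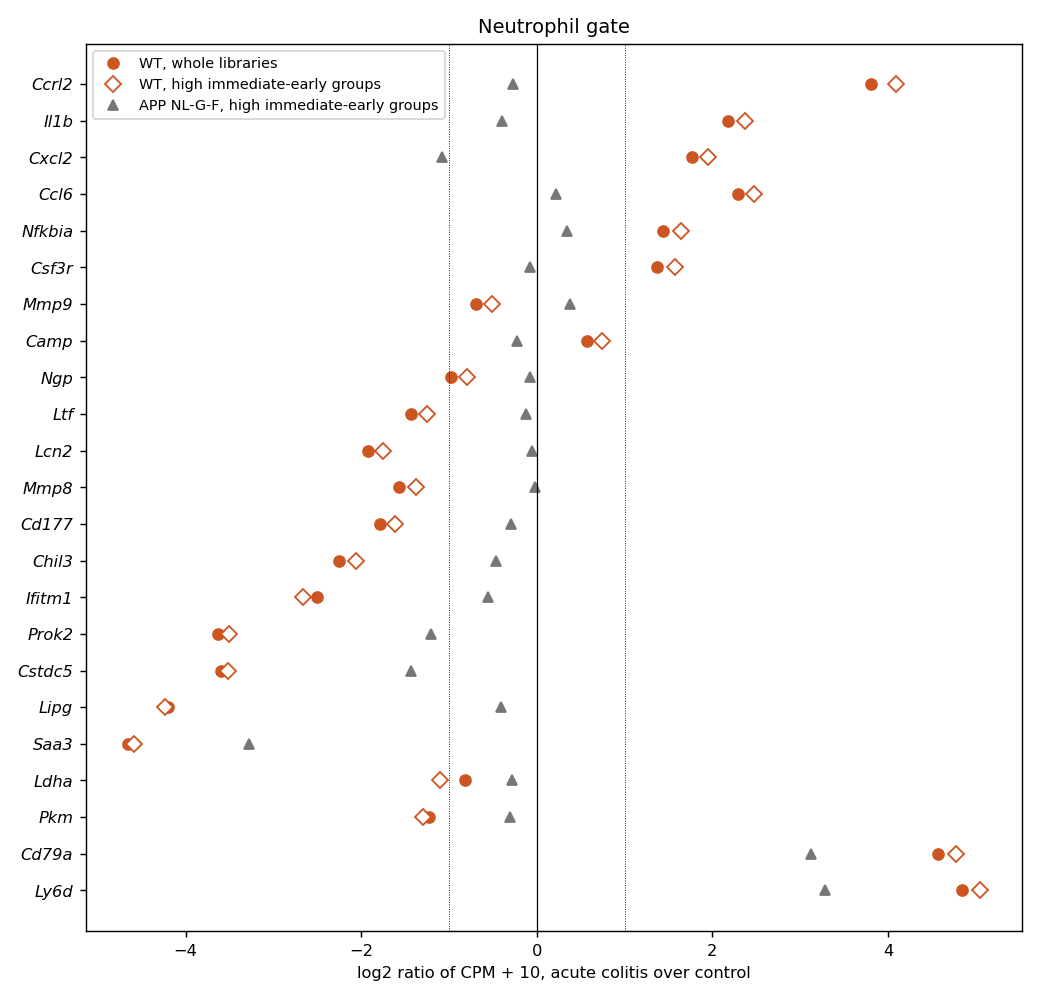
Log2 ratio of CPM with 10 added, acute colitis over control (x axis), for genes of the neutrophil gate (y axis), with symbols as WT libraries (filled circles), WT high groups (diamonds) and App NL-G-F high groups (triangles); dotted lines mark 2-fold. WT values spread from Saa3 (-4.65) to Ly6d (4.84), and Ltf (-1.43) and Lcn2 (-1.92) lie near 0 in App NL-G-F mice (-0.12 and -0.06).

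*Calca*, *Ramp3* and *Tnfrsf18* were among the genes that were lower in ILC2 of the acute library. Of 3501 genes tested, 79 were at least 2-fold higher (2.26%) and 80 lower (2.29%). The split was 102 and 56 with TMM, 47 and 75 without genes under 500 nt, and 91 and 130 within the high groups. *Calca* (chr7:114631478-114636357), which encodes calcitonin and the neuropeptide CGRP, was 3386 CPM in control and 297 CPM in acute colitis, a fold of 0.0877 (0.0784 to 0.0979), and was seen in 257 of 353 and 95 of 283 cells. By hashtag 4 to 7 it was 114, 60.8, 3424 and 5724 CPM in control, and 175 and 164 CPM in the acute groups with at least 20 ILC2. Both of these acute groups are high groups, and the acute library value of 297 CPM was above both. The 7 ILC2 of the acute low groups, too few to be given by group, thus lay above 297 CPM when pooled. The control low groups, of 25 and 36 cells, were below the acute high groups. The difference of the acute high groups lay against the control high groups, where log2 was -4.62. It was -4.06 in the high groups of *App* NL-G-F mice, at 4050 and 233 CPM.

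*Ramp3* (chr11:6658521-6677475), a partner protein of calcitonin-family receptors, was 37.9, 45.6, 215 and 728 CPM in the control groups and 13.95 and 20.9 CPM in the acute ones, without overlap. Over all genes 15.5% were lower without overlap and 6.51% higher. *Tnfrsf18*, the costimulatory receptor GITR, was 455, 441, 720 and 1198 CPM against 255 and 283 CPM, also without overlap. *Pdcd1*, which encodes PD-1, was 408 and 343 CPM in the control high groups but 12.6 and 53.2 CPM in the low ones, against 39.8 and 34.3 CPM in acute colitis. *Rora*, a transcription factor that ILC2 need, was 342 and 144 CPM in the libraries. *Hif1a* was 244 and 105 CPM and *Ldha* 2306 and 1041 CPM; both are hypoxia and glycolysis genes, of whose list 0 of 7 were 2-fold higher and 2 lower. *Ddit4*, induced by stress and glucocorticoids, was 239 and 75.9 CPM, and *Spata5l1*, an ATPase gene, 60.7 and 15.0 CPM. In *App* NL-G-F mice *Ramp3* was 250 and 24.2 CPM, *Pdcd1* 304.5 and 46.7 CPM, and *Tnfrsf18* 742 and 391 CPM.

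The type 2 cytokine list did not move together. Of 8 members 6 were tested, 0 were 2-fold higher and 2 lower, *Calca* and *Il5*, with a median log2 of -0.01 against -0.18 over all genes. *Il5*, the eosinophil growth factor, was 130 and 14.2 CPM from 11 control and 13 acute cells, with 329 CPM in control hashtag 7 and 0 to 52.0 CPM in the others. *Il13* was 83.8 and 118 CPM, the epidermal growth factor family gene *Areg* 640 and 692 CPM, and *Csf2* 91.6 and 142 CPM, with overlapping groups each. *Il13* differed in *App* NL-G-F mice, at 9.78 and 157 CPM. The defining genes *Gata3* (835 and 692 CPM) and *Il1rl1*, the interleukin-33 receptor (587 and 430 CPM), overlapped between groups.

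Of the named genes that were higher in acute ILC2, most UMIs lay in single cells. *Hba-a1*, a globin gene, was 16.6 and 998 CPM with 88.8% of the acute UMIs in 1 cell, and *Hba-a2* 0 and 341 CPM with 99.5% in 1 cell. The mast-cell proteases *Mcpt4* (5.52 and 283 CPM) and *Cma1* (2.21 and 123.5 CPM) had 81.7% and 89.2% in 1 cell. *Mcpt4* was 115.5 CPM in acute hashtag 4 and 419 CPM in acute hashtag 5, against 0 to 9.90 CPM in the control groups, with a log2 of 2.21 without the top cell of each library. In barcodes of 1 to 50 UMIs *Mcpt4* was 512 CPM in control and 1983 CPM in acute colitis. B-cell markers, 7 of 7 detected, summed to 382 CPM in control and 1470 CPM in acute ILC2, and T-cell markers to 195 and 274 CPM with *Cd3e* at 0 by the gate. Their part in the gate's other differences was not tested.

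**Figure D5:**
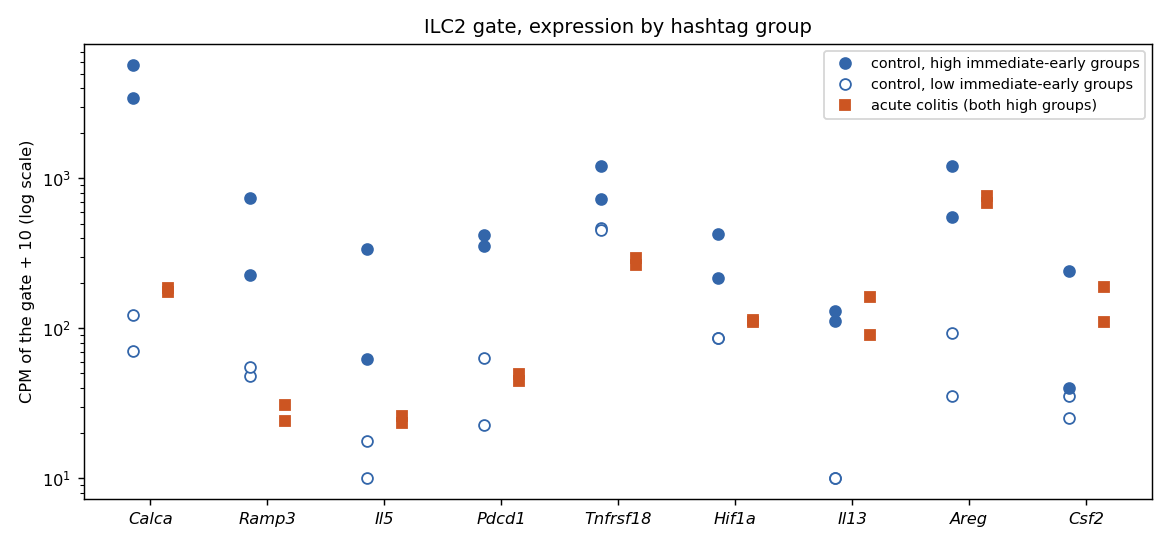
Level of 9 genes in the ILC2 gate, in CPM with 10 added (y axis, log scale), by hashtag group. Filled blue circles are control high groups, open blue circles control low groups and orange squares the acute groups, both high; for Calca and Pdcd1 the acute squares lie by the open circles and far below the filled ones, and for Ramp3 and Tnfrsf18 they lie below all control groups.

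The B gate, which held a larger share of cells in the acute library, had 121 genes past 2-fold. Of 3285 tested genes, 90 were 2-fold higher (2.74%) and 31 lower (0.944%), and without genes under 500 nt 61 and 31. Without overlap of 4 control and 3 acute groups 4.78% were higher and 7.95% lower. The 4 named lower genes, all without overlap, were below 2-fold: *Pura*, a nucleic-acid binding protein, at 128 and 75.6 CPM; *Nfatc1*, a factor of antigen receptor signalling, at 161 and 99.2 CPM; the fucosyltransferase gene *Fut8* at 66.2 and 39.1 CPM; and *Vegfb* at 53.6 and 31.4 CPM. *Fkbp5*, a cochaperone induced by glucocorticoids, was 10.2, 19.3, 144 and 110 CPM in the control groups and 16.5 and 15.1 CPM in acute hashtags 4 and 5. Acute hashtag 6 was at 231 CPM from 27 cells. *Ddit4* was 130 and 54.4 CPM in the libraries.

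Immunoglobulin genes came from few cells. *Igha*, the constant region of IgA, was 886.5 and 389 CPM from 26 and 42 cells, with 60.9% and 44.6% of its UMIs in 1 cell of each library. *Jchain*, which joins IgA and IgM units, was 5463 and 9361 CPM from 54 and 68 cells. *Ighm* was 3803 and 5281 CPM and *Ighd*, of naive B cells, 140 and 85.4 CPM, both with overlapping groups. *Cd69*, an early activation marker, was 71.2 and 164 CPM, with all acute groups (185.5, 145 and 109.6 CPM) inside or above the control range of 29.9 to 113 CPM. Of the 12 genes of B cell activation and class 6 were tested, and 1 was higher and 1 lower by 2-fold. MHC class II genes had a median log2 of -0.02. *S100a8*, a neutrophil gene, was 88.85 and 1078 CPM in this gate, with 7 neutrophil markers summed at 292 and 2432 CPM. *Wfdc21*, named as higher at 5.99 and 63.9 CPM, was 0.04 log2 when cells were taken whatever their hashtag; *Rps29*, *Rpl38* and *Rps28* were the other named higher genes.

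T cells differed in 73 of 3446 tested genes upward (2.12%) and 19 downward (0.551%). Within the high groups 71 were higher and 40 lower, and over the libraries without genes under 500 nt 42 and 19. The 5 markers of gamma-delta T cells summed to 525 CPM in control and 475 CPM in acute colitis. Of the interleukin-17 list 2 of 7 genes were tested, and 1 was 2-fold lower over the libraries and 2 within the high groups. *Il17a*, the neutrophil-recruiting cytokine gene, was 2.62, 0, 568 and 354 CPM in control hashtags 4 to 7 and 95.3, 120, 0 and 0 CPM in the acute ones, so the acute high groups lay between the low and the high control groups. *Zbtb16*, the PLZF factor of NKT and gamma-delta T cells, was 9.82, 10.0, 120 and 136 CPM against 26.3, 13.6, 25.4 and 46.5 CPM. *Trdc*, the delta-chain constant region of the T cell receptor, was 173 and 67.2 CPM in the high groups of control and acute colitis. *Pdcd1* was 607 and 694 CPM in the control high groups and 143 and 167 CPM in the acute high groups, while the small acute low groups had 499 and 589 CPM. In *App* NL-G-F mice *Il17a* was 1156 and 32.7 CPM and *Pdcd1* 373 and 166 CPM.

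*Cd8a* was lower in the acute library (457 and 212 CPM), with 894 CPM in control hashtag 4 and 155 to 519 CPM in the other control groups, and in the high groups log2 was 0.15. *Ifng* was 39.05 and 99.9 CPM, and *Gzmk*, a granzyme gene, 235 and 107 CPM. *S1pr1*, the receptor by which lymphocytes leave tissues, was 60.25, 56.6, 50.9 and 52.7 CPM in control and 98.7, 94.5, 67.7 and 101 CPM in acute colitis, without overlap, where 3.77% of all genes were higher and 11.4% lower without overlap. It was the only one of 8 genes of naive and circulating lymphocytes to do so, and *App* NL-G-F mice had 47.4 and 41.5 CPM. The named lower genes were *Lrg1* (60.3 and 4.14 CPM), *Ifitm6* (66.7 and 6.83 CPM), *Hp* (82.0 and 13.9 CPM) and *Ifitm1* (51.6 and 6.34 CPM), genes of neutrophils and monocytes that at most 23 control cells held. They were lower in barcodes of 1 to 50 UMIs too (*Lrg1* 176 and 18.1 CPM).

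*Gzmb* and *Il7r* were lower in acute NK cells. Of 3705 tested genes 77 were 2-fold higher (2.08%) and 28 lower (0.756%), within the high groups 80 and 48, and without genes under 500 nt 47 and 26. *Gzmb*, granzyme B, was 906, 911, 546 and 263 CPM in the control groups and 146 and 101 CPM in the acute groups with at least 20 NK cells, a fold of 0.257 (0.221 to 0.298). *Il7r*, the interleukin-7 receptor, was 191, 134, 417 and 552 CPM against 80.7 and 101 CPM. Neither overlapped between groups, as 18.9% of all genes lower in acute colitis did not, and 7.15% higher. Both were lower in *App* NL-G-F mice too, *Gzmb* at 414 and 144 CPM and *Il7r* at 292 and 125.5 CPM. *Prf1*, perforin, was 246 and 166 CPM and *Gzma* 1785 and 1358 CPM with overlap, whereas *Xcl1*, a chemokine for dendritic cells, was higher at 825 and 1360 CPM. Of 10 tested cytotoxic and type 1 genes, 0 were 2-fold higher and 1 lower over the libraries, and 1 and 1 within the high groups. The one that was higher there was the granzyme gene *Gzmc*, at 54.6 and 399 CPM, which over the libraries was 358 and 427 CPM with overlapping groups. *Hspe1*, a mitochondrial chaperone, was 165.5 and 386 CPM.

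Apart from *Rps29* (653 and 3430 CPM), the other named NK genes rested on few cells. *Ube2c* (79.5 and 12.95 CPM) and *Cenpa* (61.1 and 17.5 CPM), both of mitosis, were seen in 7 and 4 and in 34 and 18 cells. *Ccl2* (11.4 and 136 CPM), *Ccl7* (3.55 and 69.3 CPM) and *Ccl12* (4.26 and 62.5 CPM) are macrophage chemokine genes. For *Ccl2*, 87.2% of the acute UMIs lay in 1 cell, and in cells of a single gate the log2 difference was 0.23.

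Genes induced by the glucocorticoid receptor had a negative median difference in the 4 lymphoid gates. Of 10 listed genes, between 5 and 9 were tested per gate. Over the high groups their median log2 was -0.91 in T cells, -1.04 in B cells, -1.17 in NK cells and -0.86 in ILC2, against -0.14, -0.07, -0.11 and -0.17 over all genes tested, but 0.27 in macrophages and -0.01 in neutrophils. Over whole libraries the medians were -0.29, -0.72, -0.58 and -0.70 in the lymphoid gates, against -0.17, -0.12, -0.13 and -0.18 over all genes tested. The T value was thus close to that of all genes. Over whole libraries 1 of 7, 2 of 5, 0 of 5 and 1 of 6 tested members of the T, B, NK and ILC2 gates were 2-fold lower. Of all genes 0.551%, 0.944%, 0.756% and 2.29% were. In the high groups, from a cutoff set on these data, 2 of 7, 3 of 5, 3 of 5 and 2 of 6 were, where 1.16%, 0.974%, 1.3% and 3.71% of all genes were. Of these members 0 were higher, where 2.06%, 3.26%, 2.16% and 2.6% of all genes were. In macrophages 3 of 9 were lower and 0 higher (4.0% and 4.14% of all genes), and in neutrophils 1 of 5 each way (8.06% lower and 10.4% higher). In NK cells *Tsc22d3*, which encodes the leucine zipper protein GILZ, was 779 and 910 CPM in the control high groups and 366 and 350.7 CPM in the acute ones, and *Fkbp5* 101 and 46.5 CPM in the libraries. *Fkbp5* was also lower in NK cells of *App* NL-G-F mice (112 and 40.7 CPM). In the control low groups *Tsc22d3* was 203.8 and 239.6 CPM, below the acute values. By these counts macrophages, with 3 of 9 lower and 0 higher, did not stand apart from the lymphoid gates. Differences between gates, in medians or in counts, were not tested.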

How the data were processed

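Brain CD45.2+ cells of WT mice were profiled by droplet single-cell RNA sequencing with the 10x Genomics 5′ kit in 1 control and 1 acute colitis library. The deposited files are UMI counts per gene and barcode that the authors made with Cell Ranger on mm10, without normalization or cell calling. The processing notes name version 6.1.2 and the matrix headers name 4. UMIs in the cells kept were 29196718 and 23358325, with a median of 2647 and 3512 per cell.

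Cells were filtered and gated as in the report. Cells with several hashtags were left out as doublets, and no doublet caller was run. The libraries shared 48 cell barcodes. UMIs were summed per gate and library, since 1 library per condition allows no test, and no p-value was made. Shares have exact Clopper-Pearson intervals, their differences Newcombe intervals, gene ratios exact conditional intervals. The genes named were, per gate, the 4 highest and 4 lowest log2 ratios among tested genes whose hashtag groups of at least 20 gate cells did not overlap, leaving out mitochondrial, antigen receptor segment, Y-linked, *Xist*, Gm and Rik genes. Members of the lists and gate genes could be named too, and which of them are described was chosen after their values were seen. The members and lists were chosen with earlier results of these data known.

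TMM factors came from edgeR 4.0.16 in R 4.3.3, and all else from Python 3.11.15, matplotlib 3.10.9, pandas 2.3.3, scipy 1.17.1 and numpy 2.4.6. Gene positions are from GENCODE vM21. The gene ratios were also run on simulated Poisson counts with planted changes. These counts held no spread between cells, hashtag groups or libraries, so the run checks the calculation only. The alternatives covered the filters, gates, thinning, the pseudocount, TMM, the weighting of cells and each hashtag group left out.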

Additional observations from a re-analysis of the deposited data

Results flagged for a closer look

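The share of B cells in hashtag group 7 of the acute library was 3.70%, 2 of 54 cells, against 25.0% to 29.3% in the other 3 acute groups. It was set apart because its gap to the next group exceeded Dixon's critical value for 4 groups. Chance sets apart about 1 in 20 such groups, and 12 were looked at.

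The share of ILC2 differed by 1.09 percentage points, acute colitis minus control, in WT libraries and by -1.66 points in *App* NL-G-F libraries. The directions were opposite, and the difference between the genotypes was not tested. Within the high immediate-early groups both were lower, by -1.36 and -2.31 points.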

How the results depend on the processing

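Differences are acute colitis minus control, in percentage points. The T share reversed to 1.41 as a mean over hashtag groups and was -2.27 with 2 UMIs per gate gene, -2.52 in the high groups, -1.94 thinned to 500 UMIs and -7.82 to -0.151 with 1 hashtag group left out at a time. The B share was 9.57 with a leading hashtag at least 10 times the second, 11.4 thinned to 1000 UMIs, 8.45 thinned to 500, 7.61 as a mean over groups, 16.0 in the high groups and 12.6 to 15.9 without single groups. The macrophage share was 3.26, 5.16 and 5.40 as that mean, in the high groups and thinned to 500, and 5.61 to 8.84 without single groups. The ILC2 share reversed to -0.561 and -0.0197 when thinned to 1000 and 500 and to -1.36 in the high groups, and ran from -0.446 (without control hashtag 5) to 2.38. The neutrophil share was 1.07 thinned to 1000, -1.21 in the high groups, and -0.540 to 1.45 without single groups. The NK share was 0.614 with 2 UMIs and -1.75 to 0.166 without single groups. Of genes past 2-fold, T cells had 61 in place of 92 without genes under 500 nt, by construction, and neutrophils 721 in place of 442 with each cell weighted equally. Counts without single groups ran from 88 to 107 (T), 117 to 135 (B), 106 to 134 (NK), 139 to 194 (ILC2), 266 to 336 (macrophage) and 397 to 546 (neutrophil). *Ccl12* in NK cells (-0.109) and *Ly6d* in neutrophils (-0.0901) reversed without cells of several gates. Of the other values for named genes, 371 kept their direction and call and 11 lost the call; leaving out 1 group, 380 and 4. The causes were not tested. High groups, thinning to 500, equal weighting, the length limit and leaving out the top cell were chosen after seeing the data. Depth limits the neutrophil gate, which was shallower in the acute library, and the ILC2 share, which reversed when thinned. No paired analysis was possible because each condition is 1 library and no result comes from a test.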
